A study of Mus musculus with 2 samples.

Results

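Glycolysis breaks glucose down to pyruvate and lactate, and its enzymes form a chain in which each step takes up the product of the step before. Many of these enzymes, the glucose transporters and the kinase that holds back pyruvate dehydrogenase are known targets of Hif1a. Hif1a is the oxygen-regulated subunit of the transcription factor HIF. When oxygen is low, prolyl hydroxylases of the Egln family no longer mark Hif1a for destruction, and HIF binds short promoter elements of its targets. The early neural tube relies on glycolysis before its vessels are in place, and this is background and not a result of these arrays. The 34 genes described here were chosen by name as glycolytic enzymes, glucose and lactate carriers, controllers of glycolytic flux, other Hif1a targets and Hif1a itself, out of 37074 gene names on the array. They divide into 16 glycolytic enzymes, 6 genes of transport and flux control, 11 other Hif1a targets, and Hif1a. Their names were fixed with earlier results of these data known.

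RNA of mouse embryos at E10.5, wild type or Plzf lu/lu, was taken from the brain and compared on 2 arrays of 2 colours, and the study's methods name forebrain and midbrain as the tissue taken. Wild type embryos are labelled C57BL/6 and the mutants luxoid, a line with a spontaneous change of 1 nucleotide in the first coding exon of Plzf (Zbtb16) that truncates the protein, and the mutation is present in every cell of the embryo. Each array held 1 wild type sample in Cy3 and 1 lu/lu sample in Cy5, the labels call the arrays biological replicates, and the number of embryos behind a sample was not given in the sources used here. The dyes were not exchanged, so that a dye effect and the genotype cannot be told apart, and both arrays lay on 1 slide. In whole tissue, fewer cells of a type and less RNA per cell cannot be told apart. All ratios below are log2 of lu/lu over wild type, computed from processed signals (arbitrary units of spot brightness after background subtraction and dye normalisation), and the brightest probe stands for a gene. A gene passed when its processed signal was above 200 and its signal-to-noise ratio at least 5 in all 4 channels, which left 10600 genes, 26 of them members. To be called, a gene had to be higher on each array by more than 1.3-fold, or lower on each by more than 1.3-fold. A second test was limma, with p-values adjusted by Benjamini-Hochberg across the whole set of 10600.

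The wild type sample of array 1 stood apart from the other samples. All 7 erythroid marker genes that passed (globins among them) had log2 ratios between -1.39 and -0.80 on array 1 and between -0.15 and 0.52 on array 2. The ratios of the members and the medians of the lists are therefore given on each array, and the value on array 2 is the value without that sample. Zbtb16 itself had log2 ratios of -1.33 and -1.37, in the direction of the labels, although its lu/lu signal of 172 on array 1 was under the minimum. Of the other marker lists, the median log2 ratio of 9 neuron genes was 0.21 on array 1 and 0.72 on array 2, and that of 11 neural progenitor genes 0.10 and 0.34. It was 0.46 and -0.18 for 9 surface ectoderm genes, -0.01 and -0.17 for 10 genes of mesenchyme and neural crest, and -0.43 and -0.74 for 4 endothelial genes. Neuron and progenitor markers were thus present, as the tissue label says, and so were genes of skin, mesenchyme, vessels and blood. Their part in the values of the glycolytic and hypoxia genes was not tested.

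Several glycolytic enzymes were read by more than 1 probe, and the place of the probe in the gene went with the ratio. The pairs below belong to the 5 enzymes whose most upstream and most downstream passing probes differed by 0.35 or more on array 1. Each line gives the first 30 of the 60 bases of a probe as deposited, and no part is marked by capitals.
Ldha upstream probe: gctgattgtgaatcttcttaaggaagagca
Ldha downstream probe: tgcatatggatgatggaaccaaccacccaa
Pkm upstream probe: atcaagatcatcagcaaaatcgagaaccat
Pkm downstream probe: gagtctccaggccttttgctatagtgctca
Gpi1 upstream probe: agtttggaattgaccctcaaaacatgttcg
Gpi1 downstream probe: atgttgttctgacctttatttcacacccca
Ldhb upstream probe: ccagtggatattctgacttatgtcacctgg
Ldhb downstream probe: atgtaggtcacagtttgcttcttccctgac
Tpi1 upstream probe: cggggtgatcgcctgcatcggggagaagct
Tpi1 downstream probe: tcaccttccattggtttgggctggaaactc
The Ldha probes lie on the plus strand at chr7:54103010-54103069 and chr7:54110937-54110996 (mm9), at bases 351 and 1755 of the same transcript, NM_001136069. The Tpi1 probes lie on the minus strand at chr6:124762454-124762513 and chr6:124760947-124761006, at bases 539 and 1204 of NM_009415. The Pkm probes are on the plus strand of chromosome 9 and start 8617 bases apart, the upstream one with its ends on separate blocks of the genome. Those of Gpi1 (chromosome 7) and Ldhb (chromosome 6) are on the minus strand, with starts 13782 and 8140 bases apart. Whether a probe falls in coding sequence or in the 3′ UTR was not assigned here, as no annotation of the mm9 build was used.

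HIF binds a core of ACGTG or GCGTG, and this core was searched on both strands in the RefSeq promoter windows of GRCm38.p6 (250 bases before to 50 after each start), where a palindromic CACGTG counts as 2 matches. Windows were found for 33 of the 34 genes, and 38 of their 47 windows (80.9%) held a match, against 14380 of 32851 windows of all genes (43.8%). The share was 74.1% of 27 windows for the glycolytic enzymes, 85.7% of 7 for transport and flux control, and 91.7% of 12 for the other Hif1a targets. Windows of 1 gene can overlap and hold the same match, as in Eno1 and Aldoa, so they are not independent. The genes were chosen in part as Hif1a targets, so a higher share than in all genes is no separate finding. The promoters of 4 members are shown to give examples with many matches, with few and with none, and capitals mark the matches in the 250 bases before the start, on the strand of the gene. Of the windows of Ldha, that with the most matches is shown, at chr7:46845554-46845803 (plus strand). The window of Pgk1 is chrX:106186850-106187099 (plus strand) and that of Egln1 chr8:124949255-124949504 (minus strand). That of Gpi1 is chr7:34230337-34230586 (minus strand).
Ldha promoter: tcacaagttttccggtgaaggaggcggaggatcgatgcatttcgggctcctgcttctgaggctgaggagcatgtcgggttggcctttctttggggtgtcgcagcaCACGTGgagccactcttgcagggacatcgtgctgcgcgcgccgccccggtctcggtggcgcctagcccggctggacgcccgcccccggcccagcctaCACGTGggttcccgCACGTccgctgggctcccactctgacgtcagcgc
Pgk1 promoter: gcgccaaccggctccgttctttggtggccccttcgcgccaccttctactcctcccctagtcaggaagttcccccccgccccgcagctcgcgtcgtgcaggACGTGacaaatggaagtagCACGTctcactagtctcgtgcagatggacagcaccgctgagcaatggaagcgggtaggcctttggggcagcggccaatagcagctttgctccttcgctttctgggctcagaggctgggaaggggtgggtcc
Egln1 promoter: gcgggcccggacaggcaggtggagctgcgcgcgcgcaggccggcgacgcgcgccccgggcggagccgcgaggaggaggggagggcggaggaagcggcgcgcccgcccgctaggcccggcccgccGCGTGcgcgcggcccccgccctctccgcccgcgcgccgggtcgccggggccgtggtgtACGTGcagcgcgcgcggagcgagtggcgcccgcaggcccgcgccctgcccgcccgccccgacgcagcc
Gpi1 promoter: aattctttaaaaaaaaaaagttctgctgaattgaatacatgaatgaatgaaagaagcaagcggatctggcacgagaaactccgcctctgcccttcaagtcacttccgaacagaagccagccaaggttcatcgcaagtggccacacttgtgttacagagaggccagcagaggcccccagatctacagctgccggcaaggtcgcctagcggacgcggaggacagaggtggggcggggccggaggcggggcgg
Ldha held 5 matches here, and Pgk1 and Egln1 held 2 each. No window of Gpi1, Tpi1 or Eno2 held these letters. A match is a description of the sequence and not a site shown to be bound.

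No member was beyond 1.3-fold in lu/lu on both arrays in either direction, where 2.58% of all tested genes were higher and 0.736% lower. In limma with Benjamini-Hochberg adjustment none of the 26 passing members reached an adjusted p under 0.05, against 0.0283% of all genes higher and 0% lower. At an unadjusted limma p under 0.05, 11 members were higher and 1 lower, with 15.7% and 12% of all genes as background. At an adjusted p under 0.1, 6 members were higher (Pgk1, Egln1, Vegfa, Pfkfb3, Pkm and Hk2) and none lower, with 7.6% and 4.55% of all genes. Of the 26 members that passed, 19 (73.1%) had ratios above 0 on both arrays and 2 (7.69%) below 0 on both, where all genes had 37.3% and 35.4%. These shares hold for the brightest probe. The most upstream passing probes of Gpi1, Pkm and Eno1 were below 0 on both arrays, while that of Hk1 was above 0 on both, as given below. The median log2 ratio of the passing members was 0.28 on array 1 and 0.11 on array 2, and that of all genes 0.02 and 0.00. With normexp background correction and centring in place of the dye normalisation, 6 members, all of them enzymes, were above 1.3-fold on both arrays (4.29% of all genes) and none was lower (1.13%), and 11 were higher at an adjusted p under 0.05 in limma (9.14%) and none lower (5.14%). All 6 (Pgk1, Ldha, Pkm, Aldoa, Eno1 and Hk1) lay in the brightest decile, whose median ratio was 0.24 and 0.27 in that setting and 0.02 and -0.01 in the processed signals. With the processed signals centred on the median, Pgk1 was higher at an adjusted p of 0.0426 in limma (4.02% of all genes were higher and 1.64% lower at 0.05). With an intensity trend in limma's variance, Pgk1 and Pkm were higher at adjusted p of 0.0354 and 0.0494 (2.76% higher and 0.943% lower). On array 1 alone 7 members were above 1.3-fold (8.25% of all genes were), and on array 2 alone 1 was (4.5%).

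**Figure D1:**
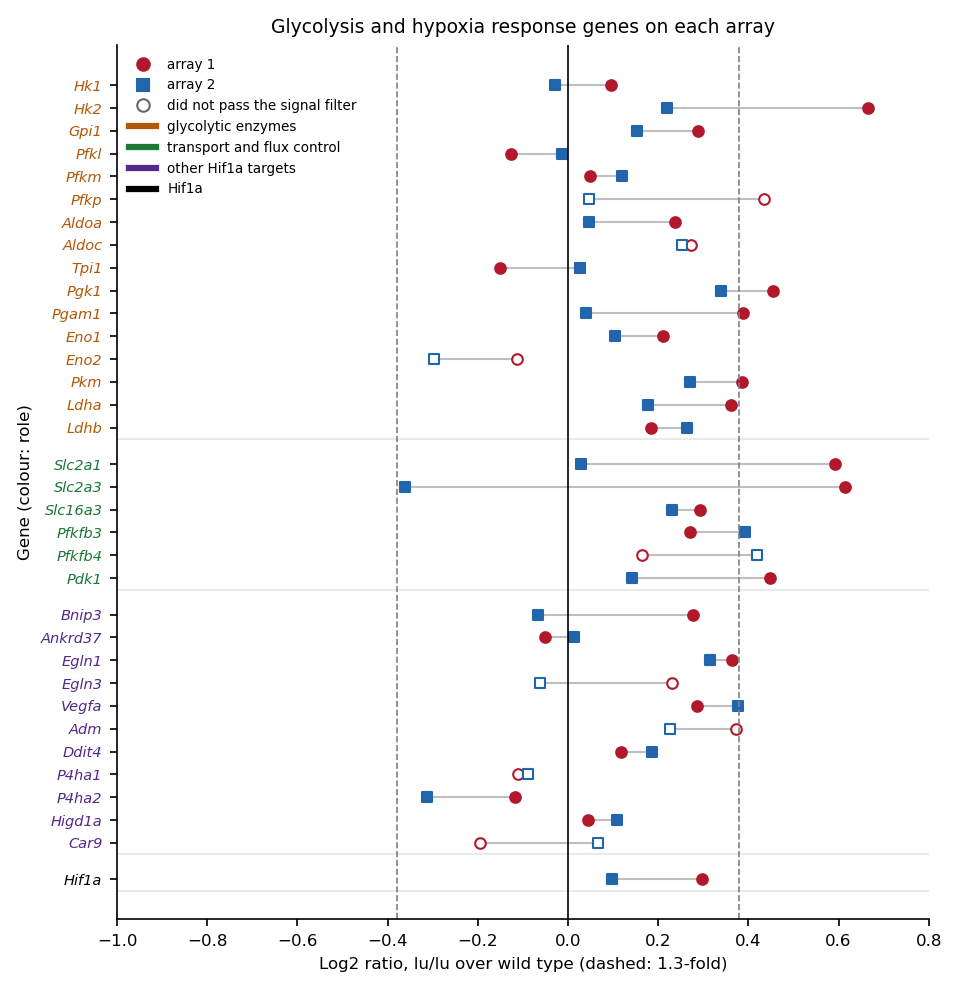
Log2 ratio of lu/lu over wild type (horizontal axis) of all 34 genes on array 1 (circles) and array 2 (squares), grouped by role, with open symbols for the 8 genes that did not pass the signal filter. Dashed lines mark 1.3-fold, and no gene with filled symbols lies beyond the same line on both arrays.

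The 16 glycolytic enzymes are described in the order of the pathway, and 13 of them passed. Hexokinase traps glucose in the cell as its phosphate. The signal of Hk2, its inducible form, was 418 in wild type and 664 in lu/lu on array 1, and 512 and 596 on array 2. Both lu/lu samples were above both wild type samples, and the wild type samples differed by more (0.32 on the log2 scale) than the lu/lu samples (-0.11). The log2 ratios were 0.67 and 0.22 (mean 0.44 ± 0.32, SD, n = 2 arrays), with a limma adjusted p of 0.0979. Here and below, whether the genotypes overlap is a description of signals that were not scaled between arrays. The share of all genes whose genotypes separated in this way was not counted. Hk1, the form of most tissues, had ratios of 0.09 and -0.03 at its brightest probe. Gpi1, which makes fructose phosphate, had 0.29 and 0.15 at its brightest probe.

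Phosphofructokinase commits sugar to the pathway and aldolase splits it. The liver-type subunit Pfkl had ratios of -0.13 and -0.01, and the muscle-type subunit Pfkm 0.05 and 0.12, and neither was beyond 1.3-fold on an array. The platelet-type subunit Pfkp did not pass, with signals between 134 and 181, and had 0.43 and 0.05. Aldoa had 0.24 and 0.05. Aldoc did not pass on account of wild type signals of 193 and 175, and had 0.27 and 0.25 as the mean of 10 spots, whose own SD was 0.07 on array 1 and 0.10 on array 2. Tpi1, which interconverts the products of aldolase, had -0.15 and 0.03, the lowest value of any passing enzyme on array 1.

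Of the 3 enzymes at an adjusted p under 0.1 in limma, Pgk1 and Pkm catalyse the steps of the pathway that yield ATP. Pgk1, the earlier of them, had signals of 44011 in wild type and 60336 in lu/lu on array 1, and 44983 and 56945 on array 2. The samples of the genotypes did not overlap, and the samples within a genotype differed by 0.06 in wild type and -0.03 in lu/lu. Its ratios were 0.46 and 0.34 (mean 0.40 ± 0.08, SD, n = 2 arrays, 95% interval of limma 0.20 to 0.59), with an adjusted p of 0.0652, the lowest of the members. Pgam1, which moves the phosphate, had 0.39 and 0.04 over 10 spots with a spot SD of 0.07 and 0.06, so that the gap between arrays exceeded the gap between spots. Eno1, the main enolase, had 0.21 and 0.11. The neuronal enolase Eno2 did not pass (signals between 35.1 and 44.0) and had -0.11 and -0.30.

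Pyruvate kinase ends the pathway and lactate dehydrogenase turns pyruvate into lactate. Pkm had signals of 29601 in wild type and 38653 in lu/lu on array 1, and 30771 and 37139 on array 2. Both lu/lu values were above both wild type values at this probe, with ratios of 0.38 and 0.27 and a limma adjusted p of 0.0840. At the upstream Pkm probe both lu/lu values were below both wild type values. The signals there were 5523 in wild type and 4099 in lu/lu on array 1, and 4120 and 4056 on array 2. Ldha, the subunit that favours lactate, had signals of 46315 and 59543 on array 1 and 50196 and 56736 on array 2. Again the genotypes did not overlap at this probe, and the ratios were 0.36 and 0.18 with a limma adjusted p of 0.118. At the upstream Ldha probe they did overlap, with signals of 2535 in wild type and 1915 in lu/lu on array 1, and 1899 and 1960 on array 2. Ldhb, the other subunit, had 0.18 and 0.26. Genes such as Pgk1, Ldha, Tpi1, Aldoa and Eno1 have processed copies elsewhere in the genome, and hybridisation of related transcripts to these probes was not tested.

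The 6 genes of transport and flux control held the largest gaps between the arrays. Slc2a1, the glucose carrier of the early brain and its vessels, had signals of 2469 in wild type and 3725 in lu/lu on array 1, and 3313 and 3381 on array 2. The lu/lu samples lay close together and above both wild type samples, and the wild type samples were 0.45 apart, so that the ratios were 0.59 and 0.03. Slc2a3, the neuronal glucose carrier, had signals of 2628 in wild type and 4026 in lu/lu on array 1, and 3961 and 3084 on array 2. The genotypes overlapped and the ratio turned from 0.62 to -0.36. A second, dim Slc2a3 probe that did not pass (signals between 21.1 and 41.4) had 0.71 and -0.72, the same turn.

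Pfkfb3, which makes the activator of phosphofructokinase, had signals of 479 in wild type and 578 in lu/lu on array 1, and 463 and 608 on array 2. The genotypes did not overlap, and with ratios of 0.27 and 0.39 (mean 0.33 ± 0.09, SD, n = 2 arrays, limma adjusted p 0.0826) it was the member above 1.3-fold on array 2. The related Pfkfb4 did not pass and had 0.16 and 0.42. Pdk1, the kinase that holds back pyruvate dehydrogenase, had signals of 902 and 1230 on array 1 and 1131 and 1248 on array 2. Its lu/lu samples were alike and its wild type samples 0.35 apart, which gave 0.45 and 0.14 and a limma adjusted p of 0.133. Slc16a3, a carrier that exports lactate, had 0.29 and 0.23, with a limma adjusted p of 0.107. The median of the 5 passing genes was 0.45 on array 1 and 0.14 on array 2.

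**Figure D2:**
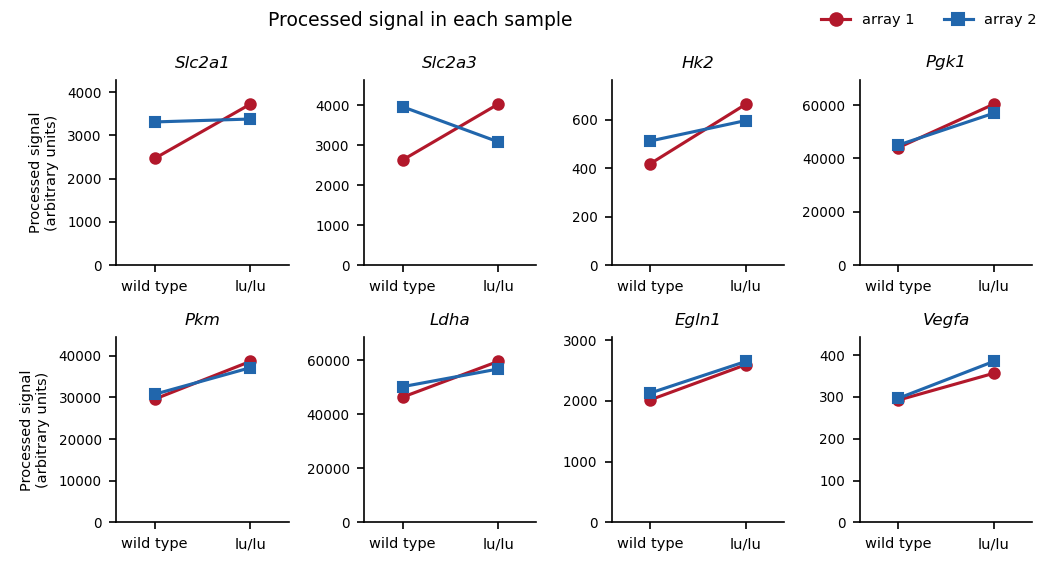
Processed signal in arbitrary units (vertical axes start at 0) of the brightest probe of 8 members in each wild type and lu/lu sample. A line joins the samples of array 1 (circles) and of array 2 (squares). The lines of Pgk1, Pkm, Ldha, Egln1 and Vegfa rise on both arrays, while those of Slc2a1 and Slc2a3 differ between the arrays, mainly at the wild type sample.

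Of the 11 other Hif1a targets, 7 passed. Egln1, the main prolyl hydroxylase that marks Hif1a, had signals of 2017 in wild type and 2596 in lu/lu on array 1, and 2130 and 2649 on array 2. The genotypes did not overlap, and the ratios of 0.36 and 0.32 (mean 0.34 ± 0.03, SD, n = 2 arrays, limma adjusted p 0.0762) were close to each other. Vegfa, the growth factor of vessels, had signals of 292 and 356 on array 1 and 297 and 385 on array 2. Its ratios were 0.29 and 0.38 at the brightest probe, with a limma adjusted p of 0.0810. The other Vegfa probes lay upstream, did not pass and differed in direction. They had 0.13 and -0.09, 0.44 and 0.43, and -0.90 and -0.55, at signals between 14.6 and 117. Ddit4, an inhibitor of mTOR signalling, had 0.12 and 0.19, and the mitochondrial protein gene Higd1a 0.05 and 0.11.

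The other targets differed in direction. Bnip3, a mitophagy receptor, had 0.28 and -0.07, and its wild type samples were 0.48 apart. Ankrd37 had -0.05 and 0.01. P4ha2, a collagen prolyl hydroxylase, had signals of 626 in wild type and 577 in lu/lu on array 1, and 534 and 430 on array 2. Its ratios of -0.12 and -0.31 made it the 1 member lower at an unadjusted p under 0.05 in limma, and its adjusted p was 0.176. The targets that did not pass were Egln3 (0.23 and -0.06), the peptide hormone gene Adm (0.37 and 0.23), P4ha1 (-0.11 and -0.09) and the carbonic anhydrase Car9 (-0.19 and 0.07). Their signals were between 79.1 and 159, and all were well above background. Hif1a had signals of 1589 and 1952 on array 1 and 1669 and 1785 on array 2, with ratios of 0.30 and 0.10 and a limma adjusted p of 0.202.

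The glycolytic enzymes were then set against the other Hif1a targets. The median log2 ratio of the 13 enzymes was 0.24 on array 1 and 0.12 on array 2, and that of the 7 targets 0.12 and 0.11. The difference between the medians was 0.12 on array 1 and 0.01 on array 2 (SD 0.08, n = 2 arrays), and 0.11 when each gene's arrays were averaged first. The smallest p that 2 arrays allow in an exact permutation of signs is 0.5, so the difference could not reach significance by a test over arrays. At the brightest probe, 10 of 13 enzymes and 4 of 7 targets were above 0 on both arrays, where 37.3% of all genes were. At an adjusted p under 0.1 in limma, 3 enzymes and 2 targets were higher, where 7.6% of all genes were. Signal level differed between the lists, since 9 of the 13 enzymes lay in the brightest decile of all genes and 1 of the 7 targets. The 1060 genes of that decile had a median of 0.00. When the mean over all passing probes stood for a gene, the enzyme median was 0.05 on array 1 and 0.11 on array 2, and the difference -0.07 and 0.00.

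**Figure D3:**
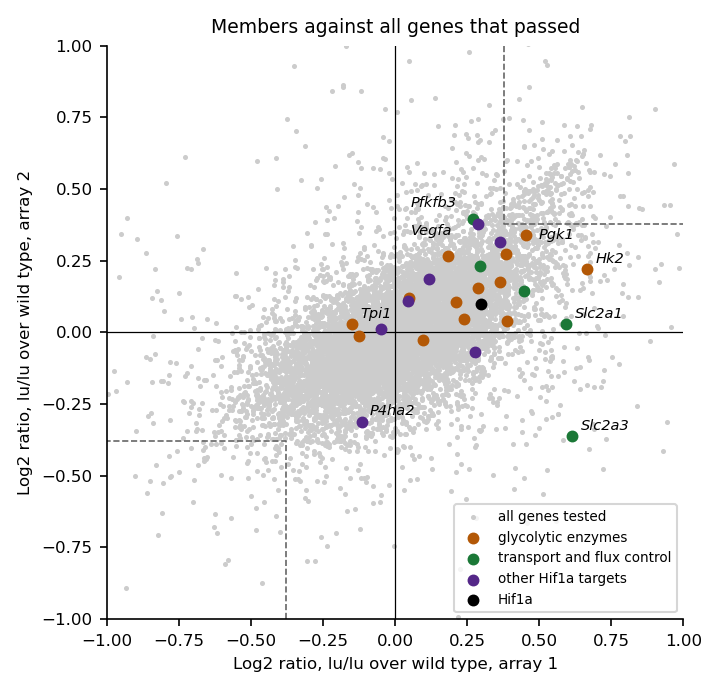
Log2 ratio of lu/lu over wild type on array 1 (horizontal) against array 2 (vertical) for all genes that passed (grey, with 52 outside the axes) and the 26 members (coloured by role). Dashed corners enclose ratios beyond 1.3-fold on both arrays and hold no member, and most members lie to the upper right of 0.

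The ratio of an enzyme depended on which of its probes was read. In 7 enzymes at least 2 passing probes of the same strand lay 500 or more genomic bases apart. The downstream probe had the higher ratio in 6 of 7 on array 1, by a median of 0.58, and in 6 of 7 on array 2, by a median of 0.20. In Ldha the upstream probe printed above had -0.40 and 0.05, against 0.36 and 0.18 downstream. In Pkm these values were -0.43 and -0.02 upstream and 0.38 and 0.27 downstream. Gpi1 had -0.48 and -0.18 upstream and 0.29 and 0.16 downstream, so that its sign turned on both arrays.

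Ldhb had -0.40 and 0.07 upstream and 0.18 and 0.26 downstream. Tpi1 had -0.50 and 0.00 upstream and -0.15 and 0.03 downstream, and another Tpi1 probe between them had -0.54 and -0.02. In Eno1 the upstream probe, designed on another transcript, had -0.05 and -0.20 and the downstream probe 0.21 and 0.11. Hk1 went the other way, with 0.23 and 0.29 upstream and 0.09 and -0.03 downstream. Its probes were designed on different transcripts and differed widely in brightness (mean signals of 798 and 49244). The same held for the Eno1 probes (mean signals of 322 and 30799), so these traits do not set Hk1 apart. Pairs of passing probes closer together were alike on array 1 in Gpi1 (0.29 and 0.29, 4 bases apart) and Pgam1 (0.39 and 0.38, 47 bases apart), but less so in Pkm (0.38 and 0.19, 88 bases apart) and Pdk1 (0.45 and 0.15, 238 bases apart). On array 2 these pairs had 0.15 and 0.16 in Gpi1, 0.04 and 0.11 in Pgam1, 0.27 and 0.15 in Pkm, and 0.14 and 0.04 in Pdk1. In Pkm and Pdk1 the lower value was that of the upstream probe on both arrays.

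**Figure D4:**
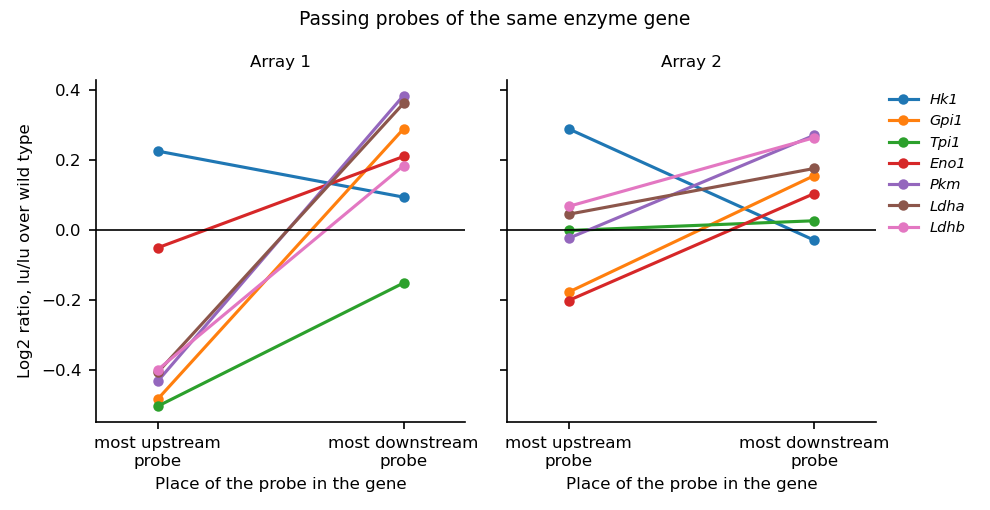
Log2 ratio of lu/lu over wild type at the most upstream and the most downstream passing probe of 7 enzymes, array 1 on the left and array 2 on the right. Lines slope upwards for 6 of the 7 enzymes on each array, more steeply on array 1, and Hk1 slopes downwards.

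Genes in general showed the same direction. Over the 1656 genes with such a pair of probes, the downstream probe was higher by a median of 0.21 on array 1 and 0.10 on array 2, and was the higher one in 79.6% and 70% of the genes. With both probes on 1 accession (788 genes) the medians were 0.25 and 0.12, and in the 313 genes whose downstream probe was the dimmer one they were 0.13 and 0.08. In all 7 enzymes the downstream probe was the brighter one. The signal of the downstream probe over the upstream probe was lowest in the wild type sample of array 1 in 5 of 7 enzymes and in 55.6% of all genes, and that sample lay -0.38 on the log2 scale from the mean of the 4 samples in the enzymes and -0.11 over all genes. When the most upstream passing probe stood for each gene, a choice made after seeing the data, the median of the glycolytic enzymes was -0.05 on array 1 and 0.05 on array 2, and their difference from the other targets -0.17 and -0.06. The other Hif1a targets and the genes of transport and flux control had no such pair of passing probes, so their ratios have no check of this kind. Their further probes at that distance did not pass, and they differed in direction. In Pdk1 these had -0.34 and -0.20, 0.31 and 1.12, and -0.44 and 0.67, at signals between 12.6 and 161.

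Lists of further genes of the same pathways had medians closer to 0 than the enzymes when the brightest probe stood for a gene. With the mean over passing probes the enzyme medians were 0.05 on array 1 and 0.11 on array 2. The further lists are given at the brightest probe only, so the order was not compared under that rule. Of 30 further genes of glycolysis and pyruvate use, 20 passed, with medians of 0.07 on array 1 and -0.04 on array 2. Of 30 further Hif1a targets 15 passed, with medians of 0.14 and 0.02. Of 12 genes of oxygen sensing and HIF subunits 9 passed, with medians of -0.04 and -0.07. None of these was beyond 1.3-fold on both arrays or at an adjusted p under 0.05 in limma. At an adjusted p under 0.1 in limma, named after their values were seen, the phosphoglucomutase family gene Pgm2 was higher (0.49 and 0.36), and the hexokinase Hk3 (-0.55 and -0.37) and the glycogen synthase Gys1 (-0.25 and -0.31) were lower. Of the further targets the histone demethylase Kdm3a was higher (0.40 and 0.26). Gapdh, the enzyme between Tpi1 and Pgk1 in the pathway, had 0.08 and -0.07 at its brightest probe. Averaged over the arrays, its ratio was -0.23 with the mean over passing probes and -0.35 at the most upstream passing probe. With normexp and centring it was 0.46.

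**Figure D5:**
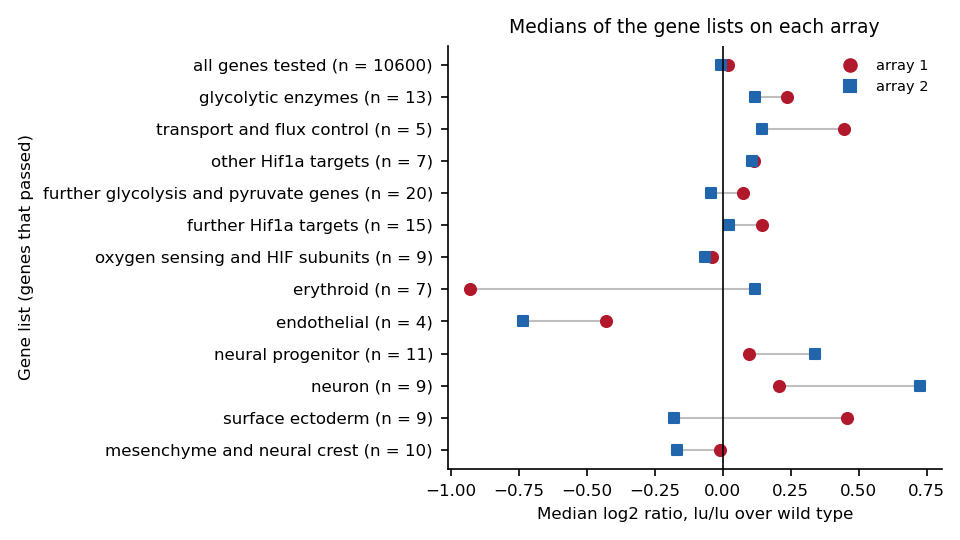
Median log2 ratio of lu/lu over wild type (horizontal axis), at the brightest probe, of the passing genes of each list on array 1 (circles) and array 2 (squares), with the number of genes. The medians of the enzymes and of transport and flux control lie above 0 on both arrays and are higher on array 1, where the erythroid median is -0.93.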

How the data were processed

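Per the labels, total RNA was amplified, labelled and hybridised to Agilent SurePrint G3 arrays of 60-base probes. The authors processed the scans with Feature Extraction 10.7.3.1 (submitters' processing notes and file headers), and the deposited intensity values are background-subtracted and dye-normalised within each array by rank-consistency LOWESS; arrays were not scaled to each other. A deposited log2 table of the same ratios lay within 0.005 of the scanner's log ratio and was used as an alternative. A deposited log10 ratio of Cy5 over Cy3 from the same software served only for that comparison. Control spots and flagged outliers were dropped, replicate spots were averaged per probe (log2), and limma 3.58.1 (lmFit with an intercept, eBayes, Benjamini-Hochberg) was run in R 4.3.3 over 10600 genes and tested on simulated data. With 1 residual degree of freedom a gene's test rests on the pooled variance, p-values measure the spread between 2 arrays, and the number of arrays limits the precision. Alternatives were normexp (offset 50) with loess or centring, centring of the processed signals, removal of the GC trend (lowess, span 0.67), other filters, probe rules, thresholds and each array alone. Named genes are all members, Gapdh, Zbtb16 and any gene of the further lists beyond 1.3-fold on both arrays (none was); Pgm2, Hk3, Gys1 and Kdm3a were named after their values were seen. Promoters were searched with Python 3.11.15. The members and lists were chosen with earlier results of these data known.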

Additional observations from a re-analysis of the deposited data

How the results depend on the processing

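With normexp and centring on the passing genes, 6 members were above 1.3-fold on both arrays and 11 at an adjusted p under 0.05 in limma (9.14% of all genes were higher at that threshold), the enzyme median was 0.40, the median of the other Hif1a targets 0.17 and their difference 0.23; over all genes 455 were higher and 120 lower. Centring of the processed signals gave 1 member higher at an adjusted p under 0.05 in limma (4.02% of all genes), eBayes with an intensity trend 2 (2.76%), and the threshold of 0.1 gave 6 (7.6%). The median of the other targets was 0.0901 with normexp and loess, 0.10 with centred processed signals, 0.13 without the GC trend and 0.0844 both without a filter and with spots well above background. The mean over probes gave 0.0842 for the enzymes and -0.021 for the difference, and the most upstream probe, chosen after seeing the data, -0.07 and -0.18. The causes of these shifts were not tested. With either array alone, the members above 1.3-fold numbered 1 to 7. They were 7 on array 1 (8.25% of all genes were) and 1 on array 2 (4.5%). The enzyme median was then 0.12 to 0.24, that of the other targets 0.11 to 0.12 and the difference 0.0123 to 0.121. With the channels as separate samples, no replicate block (the pairing by array dropped), 0 members passed an adjusted p under 0.05 in limma, and 11 were higher at an unadjusted p under 0.05. Of 297 values of the 26 members and Gapdh under these alternatives, 263 moved by less than the spread between arrays and 275 kept their sign. Many of the 263 were fixed in advance. A single array always lies closer to the mean of 2 arrays than their SD. Other filters left each ratio unchanged, and the deposited table holds the same ratios rounded. Of 27 values per setting, 14 moved by more with normexp and centring on the passing genes. With the mean over probes 8 did, and with the most upstream probe 8. With 2 arrays on 1 slide and dyes not exchanged, differences of the size of these medians rest on the spread of 1 pair of arrays.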
